A study of Homo sapiens with 60 samples.

Results

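Zizyphi Fructus, the fruit of the jujube, and Citri Unshius Pericarpium, the dried peel of a mandarin, were compared in SW1783 cells at the same dose of 500 µg/mL. The comparison rested on 5 of the 60 libraries of the series, 2 of Zizyphi and 3 of Citri, chosen by extract and dose label. SW1783 is an established human astrocytoma line, here 1 line kept in Leibovitz's L-15 and treated over 24 h, and RNA was sequenced and counted per gene. Both extracts were made with 70% ethanol. The same extracts at 100 and 20 µg/mL (2 Zizyphi and 3 Citri libraries at each dose) and 3 vehicle libraries gave the background. Per the sample labels the vehicle was 0.1% DMSO, while the series text gives 2%. The pair was picked because these extracts had raised TXNIP the most among the herbs of the series, so TXNIP is described below without a test.

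All Zizyphi libraries carry the set number 11 in their names and all Citri libraries the number 12, and no vehicle library carries either, so extract and set cannot be told apart at any single dose. No label says that replicates came from separate cultures, so the p-values reflect the spread of these libraries alone, which may be technical. The 5 high-dose libraries held 20914228 to 29165973 counts, and the 18 libraries fitted together held 15996157 to 29165973. Over 11313 well-expressed genes the Zizyphi libraries lay a median of 0.0835 (log2) from each other, against 0.0481 to 0.0601 for each Citri library from the mean of the other two. Mitochondrial transcripts made up 5.64 and 6.25% of counts with Zizyphi, 6.12 to 6.34% with Citri and 4.66 to 4.94% with the vehicle. Levels are given as CPM, the count of a gene relative to the total count of its library, with totals scaled by the trimmed mean of M values (TMM). Of 8 astrocyte markers only SLC1A3, GJA1 and ALDOC reached 1 CPM in all 5 libraries, AQP4 lay at 0 in all 5, and GFAP did not exceed 0.355 CPM.

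TXNIP and ARRDC4 encode alpha-arrestins, and their transcription is driven by MondoA and ChREBP, factors that sense sugar phosphates and bind E-box-like elements in promoters. TXNIP restrains glucose uptake and binds thioredoxin. Leibovitz's L-15 supplies galactose in place of glucose, and galactose enters glycolysis after phosphorylation by the kinase GALK1.

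The bases before the start sites of both arrestin genes are printed because these genes were high with both extracts. They come from RefSeq on GRCh38.p14, run 5′ to 3′ on the gene's strand and end at the last base before the start. Capitals mark a match to the E-box CACGTG or to a pair of related elements, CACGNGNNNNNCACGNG, searched on both strands.
TXNIP: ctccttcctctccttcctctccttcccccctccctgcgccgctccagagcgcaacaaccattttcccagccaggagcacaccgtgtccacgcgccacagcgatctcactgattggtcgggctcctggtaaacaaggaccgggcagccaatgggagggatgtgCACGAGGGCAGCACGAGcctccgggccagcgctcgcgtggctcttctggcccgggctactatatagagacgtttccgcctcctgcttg
ARRDC4: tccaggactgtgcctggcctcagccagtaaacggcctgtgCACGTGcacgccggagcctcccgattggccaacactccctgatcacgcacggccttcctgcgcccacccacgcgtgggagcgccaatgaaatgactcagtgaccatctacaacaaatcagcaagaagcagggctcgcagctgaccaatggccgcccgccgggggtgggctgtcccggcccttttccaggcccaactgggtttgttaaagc
The TXNIP stretch lies at chr1:145996580-145996829 on the minus strand and the ARRDC4 stretch at chr15:97960453-97960702 on the plus strand. The TXNIP pair starts 88 bases before the start site, and the ARRDC4 E-box starts 210 bases before it. Among 35116 RefSeq windows of 300 bases, 2548 (7.26%) held CACGTG and 20 (0.057%) held the paired pattern, which was written after the TXNIP bases had been seen. No CACGTG lay in this TXNIP window, and a second RefSeq start of TXNIP matched neither pattern.

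TXNIP reached 213.9 and 219.9 CPM in the Zizyphi libraries and 129.5, 144.6 and 125.5 CPM in the Citri libraries, against 8.21, 8.52 and 9.43 CPM with the vehicle. Every Zizyphi library lay above every Citri library, and the log2 difference was 0.71 ± 0.05 (SE). The levels stood at 12.2 to 14.8 CPM with either extract at 100 µg/mL and at 9.97 to 10.8 CPM at 20 µg/mL, and the extracts overlapped at 20 µg/mL. At 100 µg/mL the Zizyphi libraries (14.1 and 14.8 CPM) lay just above the highest Citri library (13.9 CPM). ARRDC4 was measured at 25.7 and 24.9 CPM with Zizyphi and at 18.1, 19.2 and 15.7 CPM with Citri, against 5.4 to 6.53 CPM with the vehicle. It was 1.44-fold higher with Zizyphi (log2 0.53 ± 0.08, edgeR quasi-likelihood test, Benjamini-Hochberg adjusted p = 8.62e-04). The high-dose groups did not overlap, which held for all 829 genes with an adjusted p under 0.05 and so adds nothing to the test. At 100 and 20 µg/mL the ARRDC4 differences were -0.06 and 0.02.

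**Figure D1:**
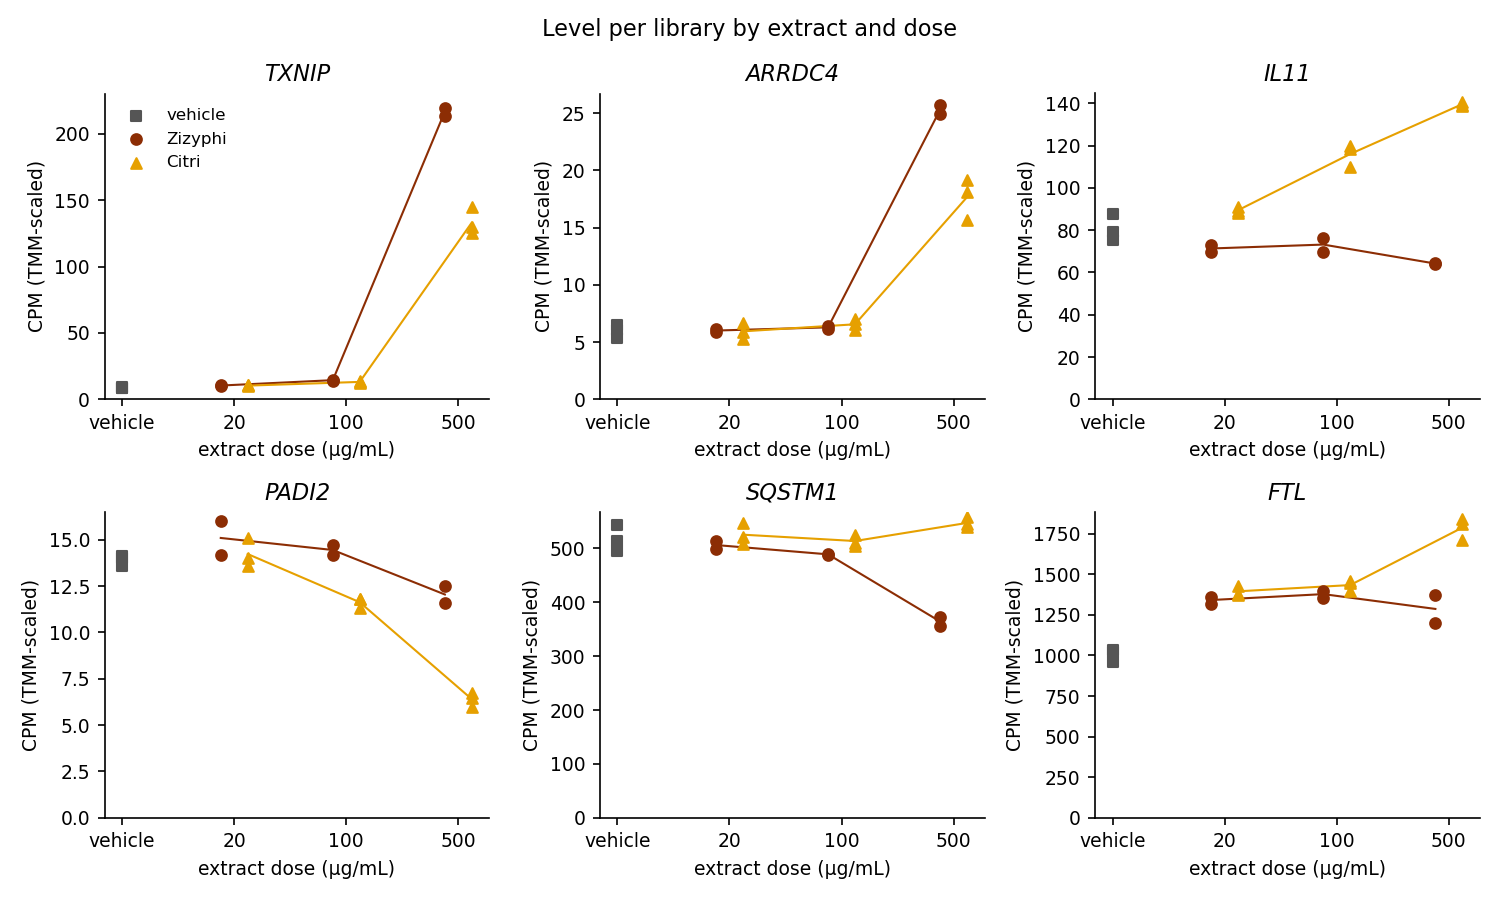
TMM-scaled CPM per library (points) and group means (lines) for 6 genes with the vehicle (squares) and with Zizyphi (circles) or Citri (triangles) at 20, 100 and 500 µg/mL. TXNIP and ARRDC4 are high with both extracts at 500 µg/mL and highest with Zizyphi, IL11 climbs with Citri only, PADI2 is lowest with Citri at 500 µg/mL, SQSTM1 is lowest with Zizyphi at 500 µg/mL and FTL is highest with Citri at 500 µg/mL.

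Between the extracts at 500 µg/mL, 829 of 16781 genes tested (4.94%) differed at an adjusted p under 0.05, which is what "called" means below. Of these, 407 (2.43%) were higher with Zizyphi and 422 (2.51%) higher with Citri. Most differences were small, with a median size of 0.237 on the log2 scale. Only 19 genes (0.113%) differed at least 2-fold, 15 of them (0.0894%) higher with Citri. Of these 19, 9 (47.4%) had a mean under 1 CPM over the 5 high-dose libraries. The count depended on single libraries. It was 137 without replicate 3 of Zizyphi, 326 without replicate 2 of Citri and 325 without replicate 3 of Citri. It was 20 in a fit of all 57 libraries of the replicated groups and 947 when 2 libraries of other treatments that stand apart were dropped from that fit.

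**Figure D2:**
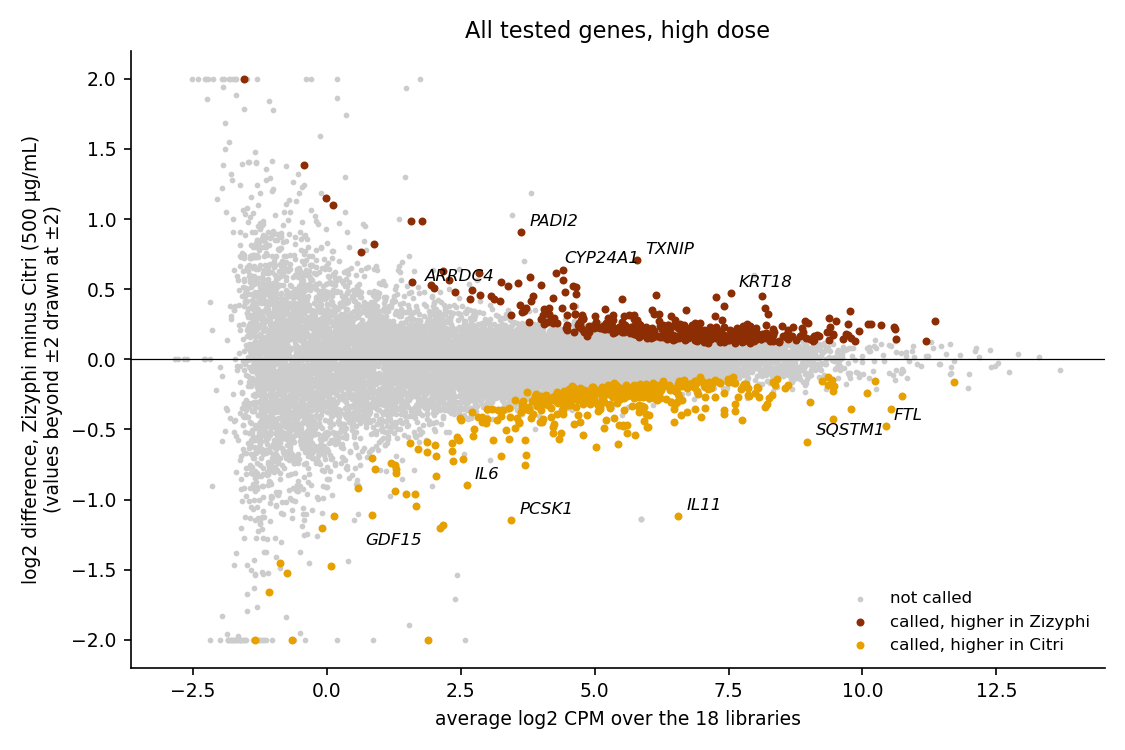
Log2 difference between Zizyphi and Citri at 500 µg/mL (positive is higher with Zizyphi) against the average log2 CPM over 18 libraries for all 16781 genes tested. The 829 called genes are coloured by direction, 407 above and 422 below 0, and most lie close to 0 while IL11, PCSK1 and GDF15 lie near or below -1.

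The genes described first were called between the extracts at 500 µg/mL and also in their change from 20 to 500 µg/mL, in which a set difference equal at both doses drops out. Apart from TXNIP, 21 genes were taken, 10 higher with Citri and 11 higher with Zizyphi. For the test between the extracts at 500 µg/mL, 5 fits each left out 1 high-dose library. All 21 were called in those that left out a Citri library, and 7 were called in the fit of 57 libraries. The test of the change from 20 to 500 µg/mL was less stable. Over all genes it called 24, but 12 without replicate 2 of high-dose Citri and 0 in the fit of 57 libraries. All the changes against the vehicle quoted below share the 3 vehicle libraries.

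The genes higher with Citri included IL11, PCSK1, ICAM1 and CD55, whose products are secreted or sit on the cell surface. IL11, a cytokine of the IL-6 family, was measured at 140.8, 138.7 and 139.3 CPM with Citri and at 64.6 and 63.8 CPM with Zizyphi, against 75.2 to 87.8 CPM with the vehicle. The Citri libraries lay above and the Zizyphi libraries below all vehicle libraries. The 2.17-fold difference (log2 -1.12 ± 0.05) had an adjusted p of 4.83e-11, and against the vehicle IL11 rose with Citri (0.79 ± 0.05) and fell with Zizyphi (-0.33 ± 0.06). IL11 also differed at 100 µg/mL (-0.66 ± 0.05, adjusted p = 9.56e-07).

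PCSK1, a protease that matures prohormones, was measured at 13.6, 17.4 and 16.6 CPM with Citri and at 7.12 and 7.18 CPM with Zizyphi. Its log2 difference was -1.14 ± 0.13 (adjusted p = 1.39e-05), and it rose with Citri against the vehicle (0.91) while its value with Zizyphi, -0.23, was not called. The adhesion molecule ICAM1 stood at 70.3 to 82.4 CPM with Citri and 54.6 and 58.2 CPM with Zizyphi, a difference of -0.44 ± 0.06. CD55, which shields cells from complement, differed by -0.40 ± 0.04 and rose against the vehicle with both extracts, by 0.64 with Citri and 0.24 with Zizyphi. With Zizyphi CD55 already averaged 89.7 CPM at the lowest dose and 94.3 CPM at the highest, against 79.8 CPM with the vehicle. From the lowest to the highest dose CD55 rose with Citri (0.37), while its Zizyphi value of 0.07 was not called. The part of the set in the changes against the vehicle was not tested.

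The cytokine genes IL6 and GDF15 were also higher with Citri. IL6 was measured at 10.5, 10.3 and 8.6 CPM with Citri and at 5.52 and 4.95 CPM with Zizyphi, against 3.24 to 4.5 CPM with the vehicle (-0.89 ± 0.15, adjusted p = 0.00162, and 0.0551 at the largest when 1 library was left out). GDF15, a stress-induced cytokine, stood at 3.97, 5.15 and 5.05 CPM with Citri and 2.21 and 1.87 CPM with Zizyphi. The GDF15 difference was -1.20 ± 0.17 (adjusted p = 2.31e-04). Against the vehicle GDF15 fell by 1.15 on the log2 scale with Zizyphi, while the Citri value was 0.05 and not called. Of 13 tested NF-kB cytokine and chemokine genes, IL6 and ICAM1 were called, both higher with Citri, and the list median was -0.14 against 0.00 over all genes. Without replicate 3 of Zizyphi 1 member was called.

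DUSP1, SMOX and AVPI1 were also higher with Citri. DUSP1, a phosphatase that switches off MAP kinases, was measured at 60.6, 64.1 and 62.9 CPM with Citri and at 41.2 and 41.1 CPM with Zizyphi, against 32.4 to 34.5 CPM with the vehicle. It rose against the vehicle with both extracts and was higher with Citri 1.52-fold (log2 -0.60 ± 0.05, adjusted p = 1.03e-06). From the lowest to the highest dose DUSP1 rose with Citri (0.62), while its Zizyphi value of 0.16 was not called. SMOX, which oxidises spermine, stood at 73.7 to 75.3 CPM with Citri and 50.9 and 51.6 CPM with Zizyphi (-0.54 ± 0.06). AVPI1, a vasopressin-induced gene, differed by -0.68 ± 0.07, rose with Citri (0.34) and fell with Zizyphi (-0.35).

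SQSTM1, NPC1 and FTL were the other genes of this direction. SQSTM1, the autophagy receptor p62, was measured at 373.4 and 355.2 CPM with Zizyphi and at 544.7, 539.6 and 557.4 CPM with Citri, against 495.9 to 544.2 CPM with the vehicle. The Zizyphi libraries lay below every vehicle library. The difference was -0.59 ± 0.04 (adjusted p = 3.12e-08), and SQSTM1 fell with Zizyphi against the vehicle (-0.51 ± 0.04), while the Citri value, 0.08 ± 0.04, was not called. NPC1, which exports cholesterol from lysosomes, stood at 271.9 to 284.2 CPM with Citri and 205.4 and 206.3 CPM with Zizyphi (-0.43 ± 0.04). It rose with Citri (0.49), and its Zizyphi value of 0.05 was not called.

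FTL, the light chain of the iron store ferritin, was measured at 1709.9, 1838.9 and 1810.4 CPM with Citri and at 1374.8 and 1197.4 CPM with Zizyphi, against 960.9 to 1032.4 CPM with the vehicle. FTL rose against the vehicle with both extracts and more with Citri, by 0.83 ± 0.04 against 0.36 ± 0.05, a difference of -0.47 ± 0.05 (adjusted p = 5.24e-06). With Zizyphi the level was already 1319.3 and 1362.5 CPM at 20 µg/mL, and the change from there was -0.06 and not called, while FTL rose with Citri by 0.36 from 20 µg/mL. FTL has processed copies in the genome with which reads can be shared, so its level is uncertain. Of 18 tested lysosome and TFEB genes, 5 were called, all higher with Citri: SQSTM1, FLCN, CTSD, NEU1 and HEXA. The list median was -0.11, and 1 member was called without replicate 3 of Zizyphi and 2 without replicate 2 of Citri. HMOX1, which degrades haem, was lower with Zizyphi (49.5 and 46.5 CPM) than with Citri (57.9, 59.4 and 63.3 CPM), by -0.33 ± 0.06. Of 19 tested NRF2 antioxidant genes 3 were higher with Citri (FTL, HMOX1 and AKR1C1) and 1 with Zizyphi (TXNRD1), with a median of 0.01. Without replicate 3 of Zizyphi 1 member was called, and 2 were called without replicate 2 or without replicate 3 of Citri, all higher with Citri.

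**Figure D3:**
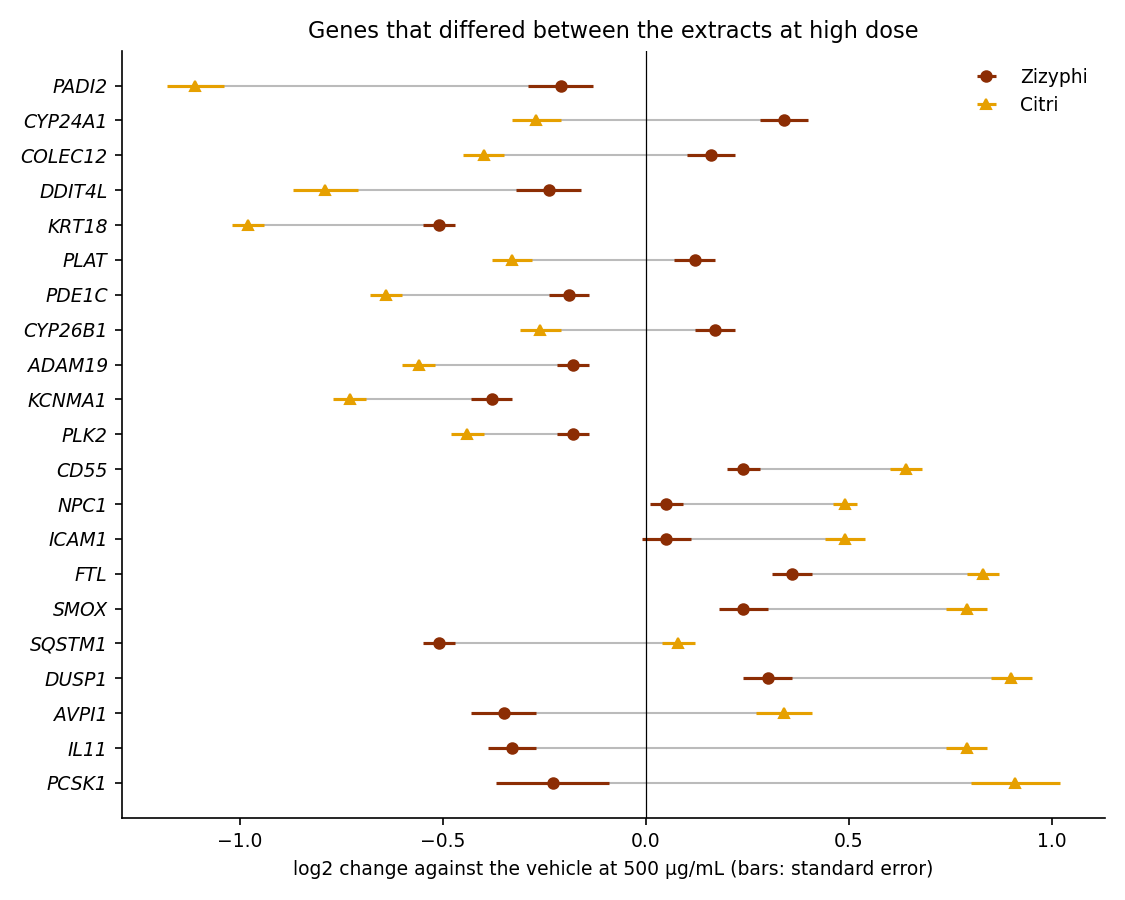
Log2 change against the vehicle at 500 µg/mL (points, with standard errors as bars) for the 21 genes described first, with Zizyphi as circles and Citri as triangles. PADI2 to PLK2 lie further left with Citri than with Zizyphi, and CD55 to PCSK1 lie further right with Citri. SQSTM1, AVPI1, IL11 and PCSK1 lie left of 0 with Zizyphi only.

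Of all genes tested 15.4% rose and 17.0% fell against the vehicle with Citri, and 10.2% rose and 11.9% fell with Zizyphi. Of the 10 genes higher with Citri, 9 rose against the vehicle with Citri and none fell, while with Zizyphi 4 rose, 3 fell and 3 were not called. Of the 11 genes higher with Zizyphi, all 11 fell against the vehicle with Citri, while with Zizyphi 2 rose, 6 fell and 3 were not called. Against the extract's own 20 µg/mL libraries, 6.38% of all genes rose and 7.47% fell with Citri, and 2.91% rose and 4.1% fell with Zizyphi. Fewer of the Zizyphi changes were called there. The Zizyphi tests had 2 libraries per dose and the Citri tests 3. Median standard errors were 0.0872 and 0.0704, so a call was harder to reach with Zizyphi. Of the 10 genes higher with Citri, 9 rose with Citri, and with Zizyphi SQSTM1 fell and 9 were not called. Of the 11 genes higher with Zizyphi, all 11 fell with Citri, while with Zizyphi PLAT and CYP24A1 rose, PADI2 and KRT18 fell and 7 were not called. These genes were chosen in part by the difference of these changes, so the counts are a description. Over all 407 genes higher with Zizyphi the median change against the vehicle was -0.21 with Citri and 0.0041 with Zizyphi. Over the 422 genes higher with Citri it was 0.16 with Citri and -0.11 with Zizyphi.

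Of the genes higher with Zizyphi, the 3 that encode PADI2 and the cytochromes CYP24A1 and CYP26B1 are given first. PADI2, which turns arginine residues into citrulline, was measured at 12.5 and 11.6 CPM with Zizyphi and at 6.48, 5.99 and 6.74 CPM with Citri, against 13.6 to 14.1 CPM with the vehicle. PADI2 fell with Citri (-1.11 ± 0.07), and its Zizyphi value of -0.21 ± 0.08 was not called. The difference was 0.91 ± 0.08 (adjusted p = 1.03e-06).

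CYP24A1, which inactivates vitamin D, was measured at 24.8 CPM in both Zizyphi libraries and at 16.9, 15.5 and 16.2 CPM with Citri, against 18.7 to 20.6 CPM with the vehicle. It rose with Zizyphi (0.34) and fell with Citri (-0.27), a difference of 0.62 ± 0.06 (adjusted p = 2.93e-06). CYP26B1, which degrades retinoic acid, lay above the vehicle with Zizyphi (0.17) and below it with Citri (-0.26), a difference of 0.43 ± 0.05. Against its own 20 µg/mL libraries the Zizyphi value was 0.04 and not called, and CYP26B1 fell with Citri (-0.37). CYP26B1 levels were 50.4 and 48.9 CPM with Zizyphi and 34.4 to 38 CPM with Citri.

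The other genes of this direction were KRT18, COLEC12, DDIT4L, PLAT, PDE1C, ADAM19, KCNMA1 and PLK2. KRT18, a keratin of simple epithelia whose processed copies make its counts uncertain, stood at 175.6 and 164.7 CPM with Zizyphi and 123.4, 116.3 and 128.5 CPM with Citri, against 237.3 to 248.2 CPM with the vehicle. It fell against the vehicle with both extracts and further with Citri, by -0.98 against -0.51, a difference of 0.47 ± 0.04 (adjusted p = 1.29e-06). COLEC12, a scavenger receptor, differed by 0.56 ± 0.06, with 23.2 and 23.1 CPM with Zizyphi and 14.7 to 16.1 CPM with Citri. DDIT4L, an inhibitor of mTORC1 signalling, differed by 0.55 ± 0.08.

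PLAT, the tissue plasminogen activator, was measured at 339.2 and 327.9 CPM with Zizyphi and at 228.5 to 252.7 CPM with Citri, a difference of 0.45 ± 0.05. PLAT fell with Citri (-0.33), and its Zizyphi value of 0.12 was not called. The phosphodiesterase PDE1C (0.45 ± 0.05), the metalloprotease ADAM19 (0.38 ± 0.04), the BK channel pore KCNMA1 (0.35 ± 0.05) and the kinase PLK2 (0.26 ± 0.04) fell against the vehicle with both extracts and further with Citri. Against the 20 µg/mL libraries of Zizyphi none of these 4 was called, at -0.13 for PDE1C, -0.06 for ADAM19, -0.15 for KCNMA1 and -0.03 for PLK2, while all 4 fell with Citri against its own 20 µg/mL libraries.

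**Figure D4:**
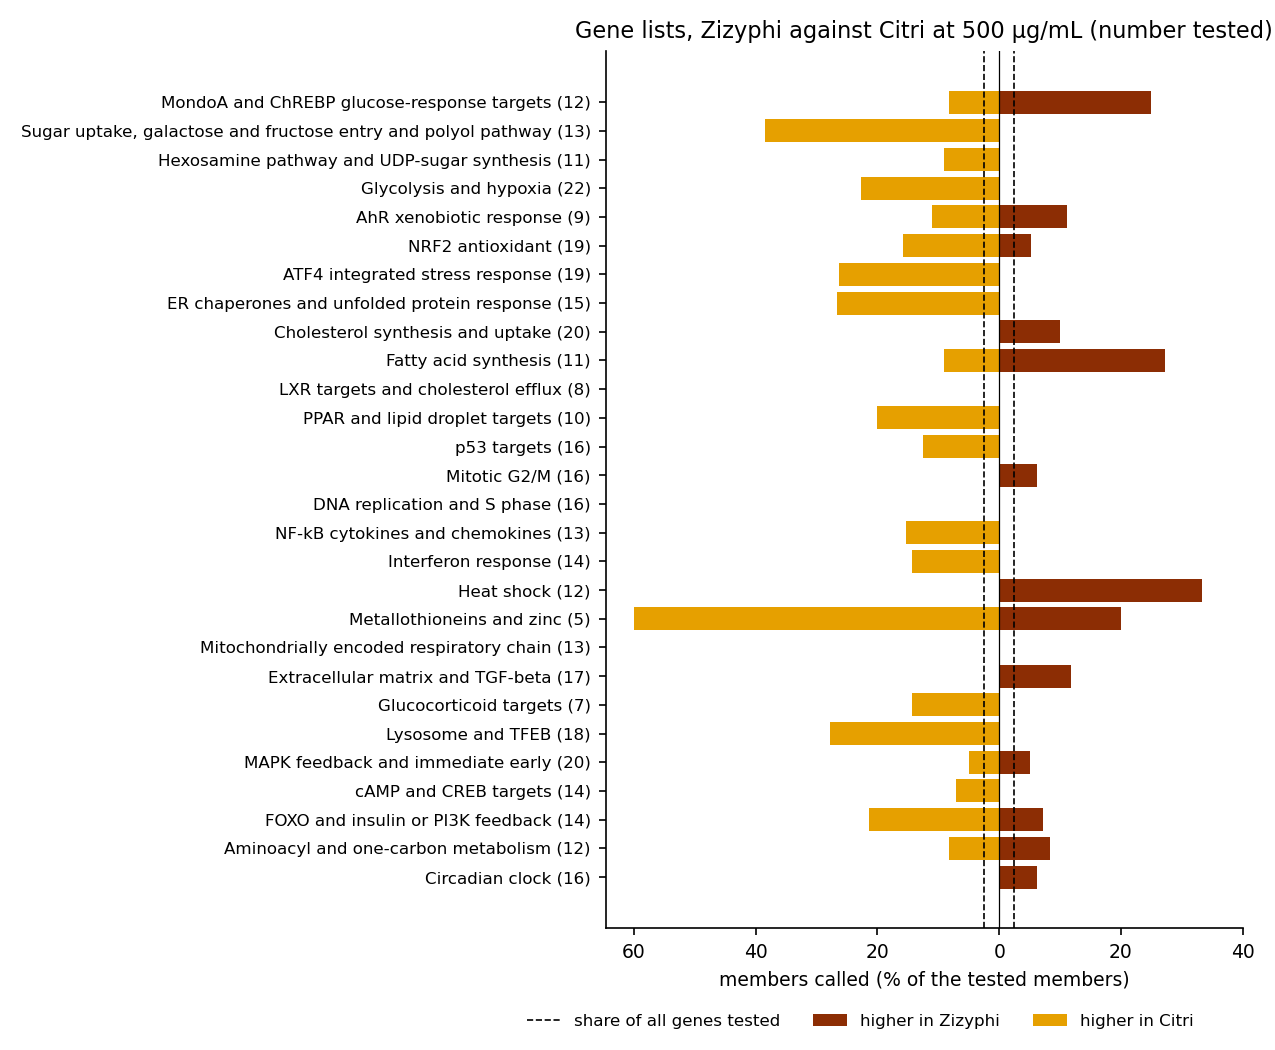
Percentage of the tested members of 28 pathway lists that were called higher with Zizyphi (right of 0) or higher with Citri (left of 0) at 500 µg/mL, with the number tested in parentheses. Dashed lines mark the shares over all genes, 2.43 and 2.51%. The ATF4, ER chaperone, lysosome, sugar and glycolysis lists extend to the Citri side, while heat shock extends to the Zizyphi side. The glucose-response and FOXO bars include TXNIP.

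The called members of the ATF4 and ER chaperone lists were all higher with Citri. Of 19 tested targets of ATF4, the factor of the integrated stress response, 5 were higher with Citri and none with Zizyphi, with a list median of -0.12. DDIT4, an mTORC1 inhibitor, was measured at 81.2 and 82 CPM with Zizyphi and at 105.4, 111.9 and 116.7 CPM with Citri (-0.45 ± 0.05, adjusted p = 2.73e-05), with a vehicle range of 81 to 83.4 CPM. DDIT3, which encodes CHOP, differed by -0.46 ± 0.08, fell with Zizyphi (-0.27) and rose with Citri (0.19). TRIB3, NUPR1 and the amino acid transporter subunit SLC3A2 were the other members called. DDIT4 also differed by -0.25 at each of the lower doses, without a call. For the difference in the change from the lowest to the highest dose no ATF4 target was called, with a list median of -0.04. That difference was -0.19 for DDIT4, -0.49 for DDIT3 and -0.30 for TRIB3. At the lowest dose DDIT3 differed by 0.03 and TRIB3 by -0.11. The part of the set in these values was not tested. The partner of SLC3A2, SLC7A5, stood at 143 and 126.7 CPM with Zizyphi and 182, 170.4 and 177.7 CPM with Citri (-0.39 ± 0.05). Without replicate 3 of Zizyphi 2 ATF4 targets were called.

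Of 15 tested ER chaperone and unfolded protein genes, 4 were called, all higher with Citri: SDF2L1 (-0.48 ± 0.09), HERPUD1 (-0.26 ± 0.06), PDIA4 (-0.19 ± 0.04) and HSPA5 (-0.16 ± 0.04). At the lowest dose SDF2L1 already differed by -0.23, HERPUD1 by -0.05 and PDIA4 by -0.04. For the difference in the change from the lowest to the highest dose the list median was -0.05, with no member called. The part of the set in these values was not tested. HSPA5, the chaperone BiP, fell against the vehicle with both extracts, by 0.48 with Zizyphi and by 0.32 with Citri on the log2 scale. No member was called without replicate 3 of Zizyphi. Cytosolic heat shock genes lay on the other side. Of 12 tested, 4 were higher with Zizyphi and none with Citri, with a median of 0.14.

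HSP90AB1, a cytosolic chaperone, was measured at 1688.2 and 1738.8 CPM with Zizyphi and at 1485.7, 1459.4 and 1490.2 CPM with Citri (0.21 ± 0.03, adjusted p = 2.81e-04). It rose against the vehicle with Zizyphi (0.12) and fell with Citri (-0.10). HSPA8 (0.25 ± 0.05), HSPH1 (0.24 ± 0.04) and HSPA1A (0.23 ± 0.05) were the other members called. Left-out libraries gave 3 to 6 called members, all higher with Zizyphi. HSP90AB1, HSPA8 and HSPA1A share reads with near-identical copies, so their levels are uncertain.

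Sugar-handling genes were called in both directions. Of 12 tested glucose-response genes, and setting aside TXNIP, ARRDC4 and KLF10 (0.16 ± 0.04) were higher with Zizyphi and PPP1R3C was higher with Citri (-0.23 ± 0.07). ARRDC4 was called in all 5 fits that left out a library, KLF10 in 1 and PPP1R3C in 0. ARRDC3 differed by 0.03 ± 0.05 and HK2 by -0.03 ± 0.06, and neither was called. Of 13 tested genes of sugar uptake, galactose and fructose entry and the polyol pathway, 5 were higher with Citri and none with Zizyphi, with a median of -0.12. At the lowest dose the median of this list was already -0.07. For the difference in the change from the lowest to the highest dose its median was -0.1, with no member called. SLC2A3, a glucose transporter, was measured at 34.7 and 31.5 CPM with Zizyphi and at 39.4, 38.7 and 40.7 CPM with Citri (-0.26 ± 0.06). AKR1B1, the aldose reductase that opens the polyol pathway, differed by -0.26 ± 0.06. GALK1, which phosphorylates galactose, differed by -0.31 ± 0.09 and SLC2A10 by -0.29 ± 0.07. At the lowest dose AKR1B1 already differed by -0.15, SLC2A10 by -0.07 and SLC2A3 by -0.01. The part of the set in these differences was not tested. Of this list 1 member was called without replicate 2 of Zizyphi, without replicate 3 of Zizyphi or without replicate 2 of Citri, and 2 without replicate 3 of Citri.

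Of 22 tested glycolysis and hypoxia genes, 5 were higher with Citri (ALDOC, ENO2, NDRG1, CA9 and PFKL) and none with Zizyphi, with a median of -0.08, and none was called without replicate 3 of Zizyphi, 3 without replicate 2 of Citri and 2 without replicate 3 of Citri. At the lowest dose the list median was already -0.06. For the difference in the change from the lowest to the highest dose the list median was 0.0, with no member called. CA9 differed by -0.26 at the lowest and -0.25 at the highest dose. These values were -0.13 and -0.36 for ALDOC, -0.06 and -0.27 for ENO2, and -0.11 and -0.25 for NDRG1. The part of the set in these differences was not tested. PDK4, which holds pyruvate back from mitochondria, was measured at 4.12, 4.4 and 4.71 CPM with Citri. With Zizyphi PDK4 stood at 2.48 and 2.77 CPM, against 1.07 to 1.53 CPM with the vehicle. It rose against the vehicle with both extracts, by 1.71 and 0.96, and the difference of -0.75 ± 0.20 (adjusted p = 0.0337) was called in 1 of the 5 fits that left out a library.

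Lipid genes split between the extracts. Of 20 tested cholesterol genes 2 were higher with Zizyphi, among them the squalene epoxidase SQLE (0.24 ± 0.05), and none was higher with Citri. HMGCS1 and INSIG1 fell with both extracts against the vehicle, and their differences of 0.18 ± 0.06 and 0.06 ± 0.04 were not called. At the lowest dose HMGCS1 already averaged 46.2 CPM with Zizyphi and 44.6 CPM with Citri, against 59.4 CPM with the vehicle. INSIG1 averaged 109.4 and 111.3 CPM there, against 134.3 CPM. From the lowest to the highest dose HMGCS1 fell with Citri (-0.25), while its Zizyphi value of -0.12 was not called. INSIG1 fell with both extracts (-0.22 with Zizyphi, -0.31 with Citri). The part of the set in the changes against the vehicle was not tested. Of 11 tested fatty acid genes SCD, ELOVL6 and ACACA were higher with Zizyphi and FADS1 was higher with Citri. SCD, a desaturase, stood at 224.7 and 226.6 CPM with Zizyphi and 188.6 to 195.0 CPM with Citri (0.24 ± 0.03, adjusted p = 1.79e-04). Without replicate 3 of either extract 1 member of each of these lists was called, higher with Zizyphi, and 2 fatty acid genes were called without replicate 2 of Citri.

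Between the extracts metallothioneins and a zinc exporter were called in opposite directions. MT1E, a zinc-binding protein, was measured at 6.12 and 5.71 CPM with Zizyphi and at 8.13, 7.96 and 10.1 CPM with Citri, against 15.4 to 17 CPM with the vehicle (-0.57 ± 0.14, adjusted p = 0.0192). MT1X and MT2A were also higher with Citri, and reads of these paralogs can be shared. The exporter SLC30A1 was higher with Zizyphi, at 64.6 and 66.3 CPM against 52.4 to 57.4 CPM with Citri (0.27 ± 0.05). With the vehicle SLC30A1 stood at 98.5 to 100.3 CPM, and it fell with both extracts (-0.60 with Zizyphi, -0.87 with Citri). The list median was -0.45 at the highest dose and already -0.2 at the lowest. For the difference in the change between these doses it was -0.25, with no member called. The part of the set in these values was not tested. Of 5 members tested, 4 were called at the highest dose. None was called without replicate 3 of Zizyphi, 2 without replicate 2 of either extract and 1 without replicate 3 of Citri.

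In the lists of DNA replication (16 tested), LXR targets (8) and mitochondrially encoded respiratory chain genes (13) no member was called, which does not show that they were alike, and 1 mitochondrial gene was called without replicate 2 of Zizyphi. Of 16 mitotic genes TPX2 was called (0.12 ± 0.03, in 0 of the 5 fits that left out a library), and MKI67, a proliferation marker, differed by 0.20 ± 0.06 without a call. The AhR target genes CYP1A1 (-0.18 ± 0.34), CYP1B1 (0.03 ± 0.04) and TIPARP (0.13 ± 0.06) were not called. CDKN1A (-0.20 ± 0.08), PLIN2 (-0.13 ± 0.05), ANGPTL4 (-0.28 ± 0.09) and FKBP5 (0.21 ± 0.09) were not called either.

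Few interferon and matrix genes were called. Of 14 tested interferon-response genes IRF7 and ISG15 were higher with Citri and none with Zizyphi, with a list median of -0.22. ISG15, a ubiquitin-like modifier, was measured at 23.2 and 18.7 CPM with Zizyphi and at 27.1, 34.3 and 30.6 CPM with Citri (-0.54 ± 0.10). Without replicate 3 of Citri 1 member was called, and without replicate 3 of Zizyphi 0. Of 17 tested matrix and TGF-beta genes 2 were higher with Zizyphi and none with Citri. POSTN, the matrix protein periostin, was measured at 128.5 and 134.3 CPM with Zizyphi and at 117.7, 112.4 and 118.0 CPM with Citri (0.18 ± 0.04, adjusted p = 0.00857). Against the vehicle POSTN fell with both extracts (-0.16 with Zizyphi, -0.34 with Citri). Without replicate 3 of Zizyphi 1 matrix gene was called.

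The remaining signalling lists held few called members. Of 16 tested p53 targets GDF15 and PHLDA3 were higher with Citri, and 1 was called when replicate 1, 2 or 3 of Citri or replicate 3 of Zizyphi was left out. Of 20 MAPK feedback genes DUSP4 was higher with Citri (-0.29 ± 0.05) and PHLDA1 with Zizyphi (0.17 ± 0.03), and 1 was called without replicate 3 of Zizyphi. Of 14 FOXO and insulin feedback genes PDK4, KLHL24 and the insulin receptor substrate IRS1 (-0.18 ± 0.04) were higher with Citri, and TXNIP, also on this list, is set aside. PDK4 and KLHL24 were called in 1 and IRS1 in 3 of the 5 fits that left out a library. Of 10 PPAR targets PDK4 and the fatty acid oxidation enzyme ACADVL were higher with Citri, and each left-out library brought the count to 1 or 0.

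The called members of 6 further lists were GNPDA1 of the hexosamine pathway (11 tested), SLC7A5 and AHRR of the AhR response (9), AARS1 and SARS1 of aminoacyl metabolism (12), CLOCK of the circadian clock (16), PPARGC1A of cAMP targets (14) and DUSP1 of glucocorticoid targets (7). AHRR, SARS1 and CLOCK were higher with Zizyphi and the others with Citri. Each left-out library moved at least 1 of these counts by more than 1.5 times, within 0 to 4.

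Lower doses separated the extracts much less. At 20 µg/mL edgeR called 0 of 16781 genes (0.0%) and DESeq2 called 2, while 1179 had an unadjusted p under 0.05. At 100 µg/mL 12 genes (0.0715%) were called, 9 of them (0.0536%) higher with Citri. Among those were IL11, DUSP1, NPC1 and CD55, and also SLC7A5, the sterol transporter GRAMD1B, the phosphodiesterase PDE7B, the growth factor TGFA and 1 gene without a symbol. The 3 (0.0179%) higher with Zizyphi were PODXL, RPS24 and UQCR10. The count at 100 µg/mL was 50 without replicate 2 of Zizyphi, 40 of them higher with Zizyphi, and 4 without replicate 3 of Zizyphi, all higher with Citri. DESeq2 called 71, 44 of them higher with Zizyphi, so the direction of this count turned with the library and the tool. GRAMD1B differed by -0.33 at 100 µg/mL and -0.47 at 500 µg/mL, and PODXL by 0.29 and 0.22. PODXL also differed by 0.22 at 20 µg/mL, without a call. At 500 µg/mL TGFA (-0.19) and UQCR10 (-0.03) were not called.

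Across doses most genes called at 500 µg/mL leaned the same way in libraries of the lower doses. The sign was shared at 100 µg/mL by 703 of the 829 (84.8%) and at 20 µg/mL by 690 (83.2%), against 57.3 and 61.5% of all genes tested. The same set numbers apply at each dose, and the part of the set in these shares was not tested. The median difference of the 422 genes higher with Citri was -0.068 at 20, -0.093 at 100 and -0.27 at 500 µg/mL. For the 407 genes higher with Zizyphi it was 0.051, 0.056 and 0.21.

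**Figure D5:**
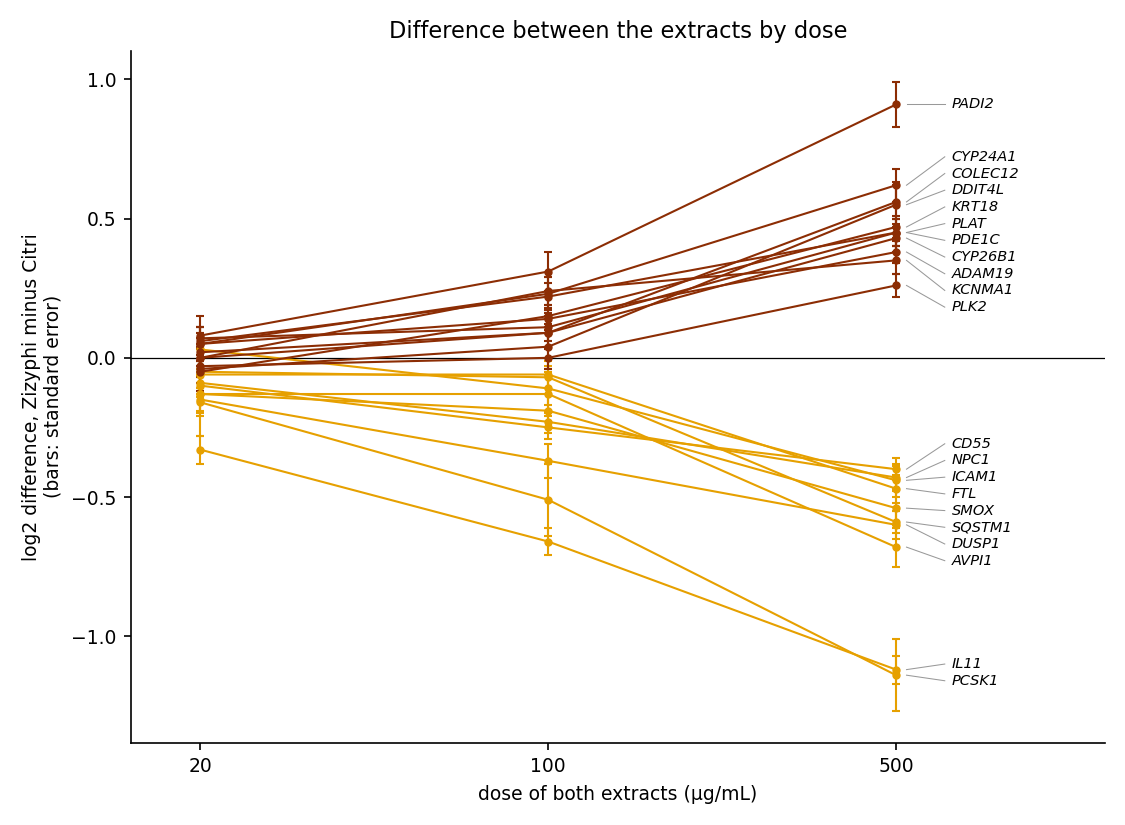
Log2 difference between Zizyphi and Citri at 20, 100 and 500 µg/mL (bars are standard errors) for the same 21 genes. The values start near 0 at 20 µg/mL, with IL11 lowest at -0.33, and spread to between -1.14 (PCSK1) and 0.91 (PADI2) at 500 µg/mL.

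The change from 20 to 500 µg/mL differed between the extracts for 24 genes (0.143%), 14 (0.0834%) towards Zizyphi and 10 (0.0596%) towards Citri. The count was 8 without replicate 3 of high-dose Zizyphi, 12 without replicate 2 of high-dose Citri, 13 without replicate 1 of low-dose Citri, 10 without replicate 2 and 13 without replicate 3 of low-dose Zizyphi. It was 0 in the fit of 57 libraries. PADI2 changed from 14.2 and 16 CPM at 20 µg/mL to 12.5 and 11.6 CPM at 500 µg/mL with Zizyphi, and from 13.6, 14 and 15.1 CPM to 6.48, 5.99 and 6.74 CPM with Citri. The difference of these changes was 0.83 ± 0.11 (adjusted p = 7.56e-04). IL11 changed from 72.9 and 69.8 CPM to 64.6 and 63.8 CPM with Zizyphi and from 88, 89.2 and 91.2 CPM to 140.8, 138.7 and 139.3 CPM with Citri (-0.79 ± 0.08, adjusted p = 1.76e-05). For ARRDC4 the difference of changes was 0.51 ± 0.14, with an adjusted p of 0.251.

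Markers of other cell types were followed beside these results. The summed level of 8 microglia and leukocyte markers was 211.0 to 215.1 CPM with Citri, 156.7 to 179.0 CPM with Zizyphi and 148.7 to 154.7 CPM with the vehicle, and CD68, a lysosomal protein, made up most of it. The defining markers AIF1, CX3CR1, ITGAM and TYROBP lay under 0.1 CPM in all 5 libraries. The summed level of 6 epithelial markers was 138.5 to 151.5 CPM with Citri, 186.8 to 202.3 CPM with Zizyphi and 259.6 to 266.8 CPM with the vehicle, most of it KRT18. EPCAM did not exceed 0.118 CPM in the 5 libraries. Among the tested markers of other lists CHI3L1 (glioma, 7 tested), ALDOC (astrocyte, 4) and SNAP25 (neuron, 6) were higher with Citri, KDR (endothelial, 3) was higher with Zizyphi, and no oligodendrocyte marker (3) was called. The part of these markers in the differences was not tested.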

How the data were processed

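RNA of 60 SW1783 libraries was deposited as one table of expected counts per gene, made by the authors. The submitters' processing notes name RSEM 1.3.3, STAR 2.7.3a, Trim Galore 0.6.5 and FastQC 0.11.9 with build hg38. The annotation, the strand setting and what each tool did were not given in the sources used here, so reads of antisense partners may not be separated. Libraries came from a strand-marking kit and 100 bp paired ends, per the labels. The table held 60675 genes, and 9.1835% of its expected counts were not whole, so they were rounded. Positions and symbols were taken from GENCODE v29 (57055 genes, 99.9678% of counts).

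The main fit held 18 libraries in 7 groups (both extracts at 3 doses and the vehicle), with 11 residual degrees of freedom. In R 4.3.3 with edgeR 4.0.16, filterByExpr (minimum count 10) kept 16781 genes, library sizes were scaled by TMM, and glmQLFit and glmQLFTest gave the tests. Adjusted p-values are Benjamini-Hochberg over all genes tested, called under 0.05. A log2 difference is Zizyphi minus Citri, with a standard error taken from the F statistic (absolute difference over its root). No 2 libraries of a group agreed within sampling noise (chi-square per degree of freedom 2.37 to 5.26 for pairs of high-dose libraries).

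The members, the 35 gene lists and the tests were chosen with earlier results of these data known. Genes are named by rule: up to 12 each way called between the high doses and in the difference of dose changes, with a mean of at least 1 CPM and no overlap; up to 5 each way called at high and low dose, of which there were 0; up to 3 called members per list; and 19 fixed genes. TGFA, GRAMD1B, PDE7B, PODXL, RPS24, UQCR10, KYNU, RASD1, S100A9, FPR1, ARHGEF16, DHRS3, CRABP2 and NPM1, and list members beyond 3, were named after their values were seen. Some called list members are counted but not reported here. The fit was tested on simulated data. Alternatives were DESeq2 1.42.0, other size factors, no filter, other sets of libraries, a replicate block and leaving out each library.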

Additional observations from a re-analysis of the deposited data

Results flagged for a closer look

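The change from 20 to 500 µg/mL differed between the extracts, by the test of that difference itself in edgeR, for 24 genes, all but TXNIP given here as the log2 difference of changes (Zizyphi minus Citri). Towards Citri the values were -0.99 for PCSK1, -0.79 for IL11, -0.55 for AVPI1, -0.53 for SQSTM1, -0.47 for ICAM1, -0.45 for DUSP1, -0.42 for FTL, -0.41 for SMOX, -0.34 for NPC1 and -0.30 for CD55. From 20 to 500 µg/mL SQSTM1 fell with Zizyphi while its Citri value was not called, and FTL rose with Citri while its Zizyphi value was not called. Towards Zizyphi the values were 0.83 for PADI2, 0.59 for DDIT4L, 0.57 for CYP24A1, 0.56 for COLEC12, 0.52 for KRT18, 0.41 for CYP26B1, 0.39 for PLAT, 0.38 for PDE1C, 0.36 for KCNMA1, 0.33 for ADAM19, 0.29 for PLK2, 0.25 for NPM1 and 0.22 for HSP90AB1. NPM1, a nucleolar chaperone, has processed copies, so its counts are uncertain.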

How the results depend on the processing

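At high dose the count of called genes was 829, and it was 800 with DESeq2, 815 with other size factors, 947 in the fit of 55 libraries and 1190 without a filter. It moved to 20 in the fit of all 57 libraries, 396 with only the 5 libraries and 137 to 942 with 1 library left out. At low dose 0 genes were called, and the count was 1 with 55 libraries, 2 with DESeq2, 1 with only the groups compared, 142 without a filter and 0 to 1 with 1 library left out. At medium dose 12 were called, and the count was 21 with 55 libraries, 1 with 57 libraries, 71 with DESeq2 (44 of them higher with Zizyphi, against 3 of 12), 7 with only the groups compared, 279 without a filter and 4 to 50 with 1 library left out. For the difference of dose changes 24 were called, and the count was 43 with 55 libraries, 0 with 57 libraries, 54 with DESeq2, 15 with only the groups compared, 184 without a filter and 8 to 25 with 1 library left out. The cause of these shifts was not tested.

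The replicate block gave 1467 calls at high dose, 5 at low dose, 31 at medium dose and 37 for the difference of dose changes. Zizyphi and Citri share only replicate numbers 2 and 3, whose libraries had deviations correlated at -0.0831 and -0.0915 over 11313 genes, so the numbers were not taken as pairs.

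Over all settings and named genes the call was lost 211 times and gained 9 times. The values changed sign in 4 fits, none called: without replicate 3 of high-dose Zizyphi ARRDC3 was -0.04, CYP1A1 0.08 and CYP1B1 -0.03, and without replicate 2 HK2 was 0.03. Over the fits that left out 1 library ARRDC3 reached 0.10, CYP1A1 -0.51, CYP1B1 0.09 and HK2 -0.09. With 2 Zizyphi libraries, leaving out 1 leaves a lone library that is assumed to vary like the other groups.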

Other observations

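Apart from IL11, PCSK1 and GDF15, the genes with a symbol, a mean of at least 1 CPM and a difference of at least 2-fold were few and low. KYNU, an enzyme of tryptophan breakdown, was measured at 8.37, 6.6 and 6.5 CPM with Citri and at 3.0 and 3.3 CPM with Zizyphi (-1.18 ± 0.17, adjusted p = 3.65e-04), and it rose with Citri against the vehicle (0.97). FPR1, a receptor for formylated peptides, stood at 3.5, 2.95 and 3.46 CPM with Citri and 1.48 and 1.74 CPM with Zizyphi (-1.04 ± 0.17), and it fell with Zizyphi against the vehicle (-0.80). S100A9 (-1.11 ± 0.25) and RASD1 (-1.11 ± 0.31) were higher with Citri and ARHGEF16 (1.10 ± 0.27) higher with Zizyphi, and these 3 lost their call when some libraries were left out.

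DHRS3 and CRABP2 were also higher with Zizyphi. DHRS3, which reduces retinal, was measured at 26.5 and 27.0 CPM with Zizyphi and at 20.5, 17.7 and 19.6 CPM with Citri (0.47 ± 0.07, adjusted p = 6.90e-04). CRABP2, which carries retinoic acid to the nucleus, stood at 4.78 and 4.15 CPM against 2.99, 2.9 and 3.12 CPM (0.57 ± 0.13, adjusted p = 0.0157, called in 2 of the 5 fits that left out a library). Both fell with Citri against the vehicle, by 0.50 and by 0.85 on the log2 scale, and neither Zizyphi value was called. These genes were picked after their values were seen.

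PPARGC1A, a coactivator of mitochondrial genes, was measured at 2.51, 2.72 and 2.98 CPM with Citri and at 1.35 and 1.47 CPM with Zizyphi (-0.96 ± 0.20, adjusted p = 0.0094, called in 3 of those 5 fits). It fell 2.01-fold with Zizyphi against the vehicle, while the Citri value of -0.04 was not called.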
